A study of Bombyx mori with 8 samples.

Results

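G-quadruplex (G4) peaks lying within 500 kb of an end of a silkworm (Bombyx mori) autosomal sequence were described in larval brain and fat body. The members were the called peaks on the 27 long sequences numbered 2 to 28 whose summit lay within 500 kb of position 0 or of the last base covered by a peak in any of the 4 lists. They numbered 3308 of 55134 peaks, namely 411 of 6759 in brain replicate 1, 1890 of 33925 in brain replicate 2, 552 of 8556 in fat body replicate 1 and 455 of 5894 in fat body replicate 2. Position alone chose them, and no measured height or width entered the choice. The 54 end zones spanned 27 Mb, or 6.38% of the 423.5 Mb of these sequences, which were 8.32 to 21.5 Mb long.

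The study used CUT&Tag, where the Tn5 transposase is tethered to an antibody bound in chromatin and tags the DNA beside it for sequencing. All 4 libraries were labelled wild type, strain P50, stage L5D3 and BG4, a G4-binding antibody fragment, with 2 replicates of brain and 2 of fat body; the labels do not say whether the replicates are separate animals, and their spread may be technical. Not analysed here were an IgG library, a brain library of stage P0 and 2 libraries of BmN, an ovarian cell line. In both fat body lists the peaks are named after 1H6, another G4 antibody, where the labels say BG4, and the peak names of brain replicate 2 hold no antibody, so tissue and antibody cannot be told apart in any comparison below.

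A G4 is a four-stranded fold that guanine-rich DNA can take when runs of guanines stack in planar quartets. Chromosome ends are a classic setting for such folds, because telomere repeats are rich in guanine on one strand; in the silkworm, TRAS and SART retrotransposons are inserted among the repeats. Silkworm chromosomes are holocentric, so that the interior has no single centromere with which an end could be contrasted. The fat body stores lipid and runs intermediary metabolism in insects, while the larval brain holds neurons, glia and neurosecretory cells.

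The position of the end itself has a limit that touches all results. At the start side, position 0 is the first base of the sequence. At the far side, the end was the last base under a peak, which brain replicate 2 set in 20 of 27 sequences, brain replicate 1 and fat body replicate 1 in 3 each and fat body replicate 2 in 1. At least 1 list therefore had a peak at distance close to 0 at each far end by construction. Values for the 27 start-side ends alone are given where they were computed and change a call. Whether the terminal repeats themselves are part of these sequences was not tested.

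The first question was whether peaks were more or less dense near the ends. Brain replicate 1 had 15.2 peaks per Mb near the ends and 15.2 in the interior. Brain replicate 2 had 70 and 77.2, fat body replicate 1 had 20.4 and 19.6, and fat body replicate 2 had 16.9 and 13.3. Brain replicate 2 was thus sparser near the ends and fat body replicate 2 denser, while the other lists were close to even. Each sequence's end zone was set against its own interior in a quasi-Poisson model over 27 sequences, with p adjusted over the 4 lists. The ratio was 0.896 in brain replicate 2 (95% confidence interval 0.835 to 0.961, n = 27, adjusted p = 0.0130), with the end denser in 8 of 27 sequences. In fat body replicate 2 the ratio was 1.29 (1.07 to 1.56, n = 27, adjusted p = 0.0208), with the end denser in 17 of 27. The interval ran from 0.878 to 1.16 in brain replicate 1, at a ratio of 1.01 (n = 27, adjusted p = 0.895, 13 of 27 denser). It ran from 0.880 to 1.30 in fat body replicate 1, at a ratio of 1.07 (n = 27, adjusted p = 0.656, 15 of 27 denser). On start-side ends alone brain replicate 2 stayed low, at 0.844 (n = 27, adjusted p = 0.0183), and fat body replicate 2 no longer passed, at 1.15 (adjusted p = 0.357). Neither passed with a 1 Mb zone, at 0.986 and 1.09 (n = 27, adjusted p = 0.580 and 0.577), or against the central 50% of each sequence, at 0.945 and 1.17 (adjusted p = 0.195 for both), and fat body replicate 2 did not with a −log10 q of at least 20, at 1.23 (adjusted p = 0.210). With lists shortened to equal length by −log10 q, the ratio of brain replicate 2 was 0.570 (n = 27, adjusted p = 2.72e-07), on 218 end peaks.

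**Figure D1:**
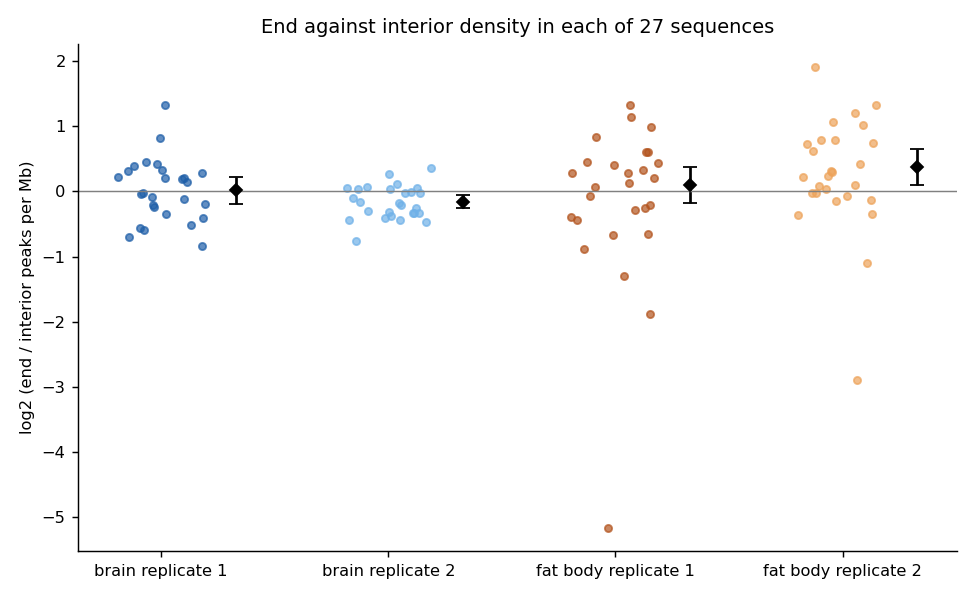
Each point is the log2 ratio of end to interior peak density (peaks per Mb, 0.5 added to each count) in 1 of 27 sequences, and diamonds with bars give the fitted ratio and its 95% confidence interval for each list. The interval of brain replicate 2 lies below 0 and that of fat body replicate 2 above it, and the lowest point of both fat body lists is sequence 21.

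Lists were also set against each other within sequences, which compares libraries and not tissues; p was adjusted over 6 pairs, a test added after the data were seen. The end to interior ratio of fat body replicate 2 was 1.44 times that of brain replicate 2 (1.15 to 1.80, quasi-binomial adjusted p = 0.00713) and 1.28 times that of brain replicate 1 (1.11 to 1.49, adjusted p = 0.00713). It was also 1.21 times that of its own replicate, fat body replicate 1 (1.06 to 1.39, n = 27, adjusted p = 0.0150). The other 3 pairs did not pass, with adjusted p of 0.174 to 0.534. The replicates of fat body thus differed from each other near the ends. By tissue, the log2 ratio averaged -0.073 ± 0.12 in brain and 0.23 ± 0.19 in fat body (SD, n = 2 each). The difference of 0.30 had an exact two-sided permutation p of 0.333, the smallest that 2 against 2 libraries can give.

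In 100-kb steps, the 3 of 20 that passed lay in the outermost 200 kb. Fat body replicate 2 had 19.4, 19.3, 16.9, 12.8 and 15.9 peaks per Mb from the outermost step inwards, against 13.3 in the interior. Its first and second steps passed, at 1.49 times (1.13 to 1.96) and 1.47 times (1.12 to 1.95) the interior (quasi-Poisson model, n = 27, adjusted p = 0.0435 for both, over 20 steps and lists). Brain replicate 1 had 15.4, 20.6, 12.8, 15 and 12.4 peaks per Mb against 15.2. Its second step, from 100 to 200 kb, was 1.36 times the interior (1.10 to 1.68, n = 27, adjusted p = 0.0435), with 111 peaks and 17 of 27 sequences denser. Fat body replicate 1 had 21.7, 23.1, 18.5, 19.1 and 19.8 peaks per Mb against 19.6, and no step passed (n = 27, adjusted p = 0.342 to 0.982). Brain replicate 2 was below its interior density in each step, at 66.3, 72.0, 70.7, 68.5 and 72.4 against 77.2; the outermost was 0.848 of the interior (0.748 to 0.962, n = 27, adjusted p = 0.0539) and did not pass. At the outermost step brain replicate 2 had 144 peaks on the start side and 214 on the far side, the side whose end it mostly defined. The 3 steps that passed also had fewer peaks on the start side than on the far side. In fat body replicate 2 these were 46 and 59 in the first step and 42 and 62 in the second. The second step of brain replicate 1 had 48 and 63. No step was tested on start-side ends alone.

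**Figure D2:**
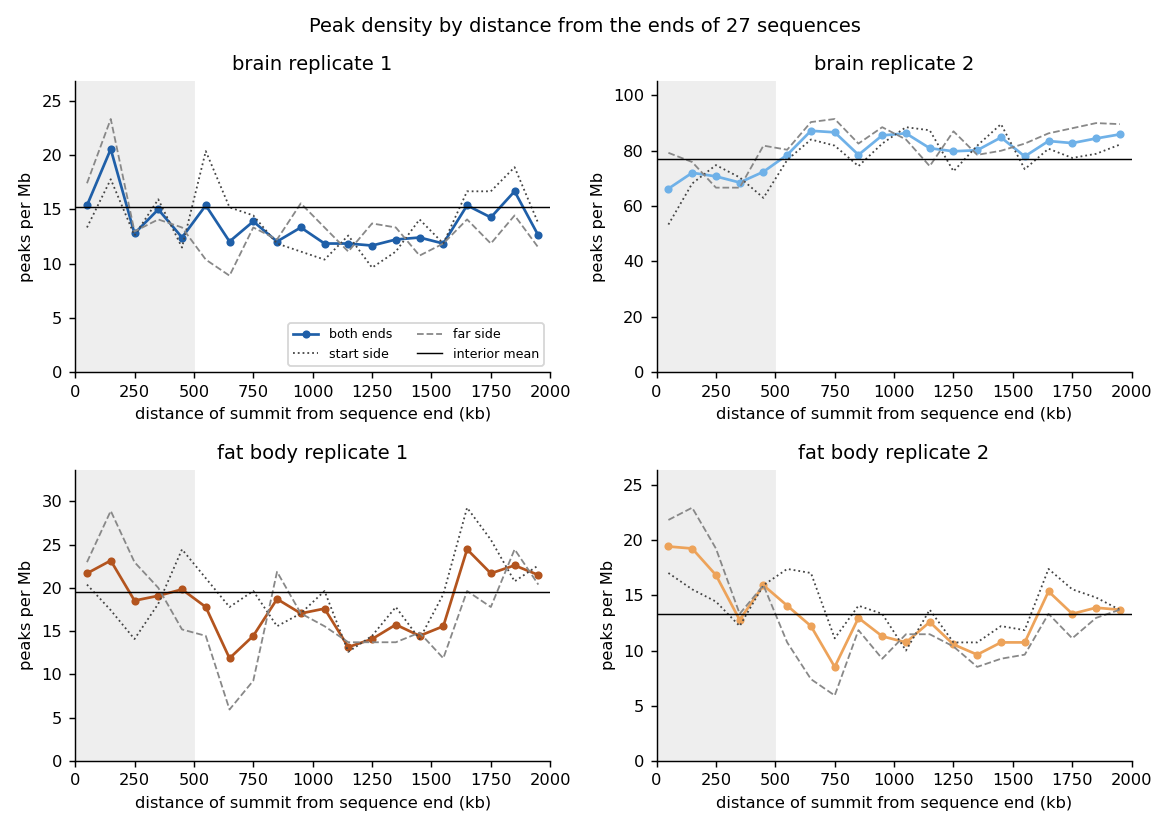
Peaks per Mb in 100-kb steps from the ends of 27 sequences out to 2 Mb for each list, with both ends joined (points), the start side (dotted) and the far side (dashed) shown apart, the interior mean as a horizontal line and the 500-kb zone shaded. Fat body replicate 2 falls from 19.4 per Mb in the outermost step to 8.52 between 700 and 800 kb, and brain replicate 2 climbs from 66.3 to 87.2 between 600 and 700 kb.

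The 400-to-500-kb step just inside the zone and the 500-to-600-kb step just outside it held 67 and 83 peaks in brain replicate 1 and 391 and 424 in brain replicate 2. In fat body they held 107 and 96 in replicate 1 and 86 and 76 in replicate 2. In each list some other pair of neighbouring steps out to 2 Mb differed by more peaks than the pair at the limit.

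A 100-kb window was called dense when its count was above the 90th percentile of its list, which held for 9.58%, 7.06%, 9.01% and 9.96% of all 4206 windows, brain lists first and each tissue in replicate order. Of the 270 end windows, 24 (8.89%) were dense in brain replicate 1, 12 (4.44%) in brain replicate 2, 25 (9.26%) in fat body replicate 1 and 41 (15.2%) in fat body replicate 2. The shares of brain replicate 1 and fat body replicate 1 were near the background. Windows with no peak made up 28.3%, 0.166%, 39% and 39.4% of all windows in the same order, and 23.3%, 0.741%, 37.0% and 33.3% of end windows. The 2 empty end windows of brain replicate 2 were both outermost ones.

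The outermost called peak lay at very different distances. On the 27 start sides its summit was a median of 26.8 kb from position 0 in brain replicate 2, with a range from 2.32 to 151 kb. In brain replicate 1 the median was 64.3 kb (3.45 to 334 kb), in fat body replicate 1 69.3 kb (19.6 to 537 kb) and in fat body replicate 2 56.7 kb (5.19 to 253 kb). The longest list thus reached closest to the start, and no list had a peak within 2 kb of position 0 on these sequences.

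The second question was whether end peaks differed in height. Median fold enrichment at the summit, the authors' value over a local background, was 4.84 near the ends and 5.15 in the interior of brain replicate 1. It was 4.40 and 5.17 in brain replicate 2, 4.90 and 5.03 in fat body replicate 1, and 6.30 and 6.86 in fat body replicate 2. The end median was lower in all 4 lists. By sequence, the end median was the higher one in 10 of 27, 1 of 27, 13 of 26 and 4 of 27 sequences in the same order (fat body replicate 1 had no end peak on sequence 21). Summit pileup, the number of fragments stacked at the summit as recovered from the authors' fold and p, had medians of 48 and 49, 66 and 66, 61.5 and 58, and 45 and 43 fragments near the ends and in the interior. The end median pileup was the higher one in 7 of 27, 11 of 27, 15 of 26 and 13 of 27 sequences. The local background beneath the peaks was recovered from the same fold and pileup, so it is not a measure independent of the fold. It was higher near the ends in all 4 lists. Its medians were 10.0 near the ends and 9.07 fragments in the interior of brain replicate 1, 14.0 and 12.2 in brain replicate 2, 10.6 and 9.98 in fat body replicate 1, and 6.59 and 5.38 in fat body replicate 2. The end median was above the interior one in 18 of 27, 22 of 27, 15 of 26 and 21 of 27 sequences. These heights and backgrounds are described with no test, and the part of the background in the other results was not tested.

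**Figure D3:**
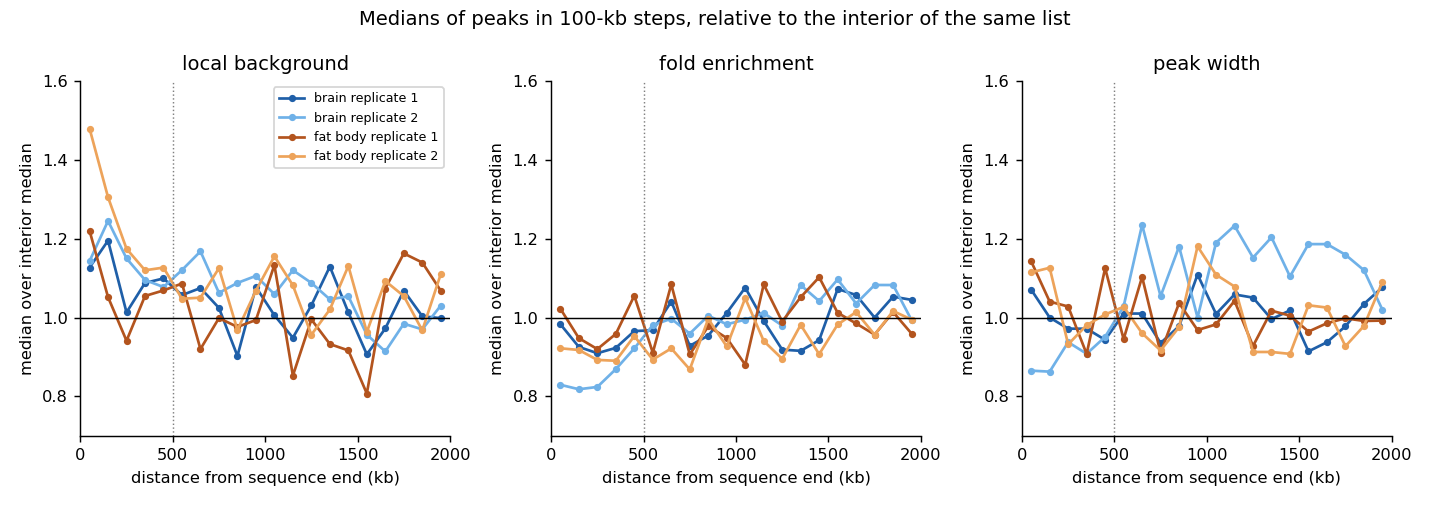
Median local background (fragments), fold enrichment and peak width (bp) of the peaks in each 100-kb step from the sequence ends, divided by the interior median of the same list, with the dotted line at 500 kb. Background in fat body replicate 2 is highest in the outermost step, with a median of 7.96 fragments against 5.38 in the interior, and fold in brain replicate 2 is lowest in the first 3 steps, with medians of 4.23 to 4.29 against 5.17.

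Peaks of low fold were the class most concentrated near the ends. Each list was split into deciles by fold and by width and into peaks shared or not shared with other lists, and 24 such classes were compared between ends and interior, a set of tests added after the data were seen. In fat body replicate 2 the decile of lowest fold, up to 4.56, had 92 peaks near the ends, or 3.41 per Mb against 1.22 in the interior. The ratio was 2.88 (2.14 to 3.87, quasi-Poisson model, n = 27, adjusted p = 1.89e-06), with the end denser in 23 of 27 sequences. In brain replicate 2 the lowest decile had 337 end peaks, 12.5 per Mb against 7.35, a ratio of 1.73 (1.43 to 2.08, n = 27, adjusted p = 2.47e-05), also denser in 23 of 27. The ratios were 1.34 (0.992 to 1.80, n = 27, adjusted p = 0.122) in brain replicate 1 and 1.48 (1.03 to 2.13, adjusted p = 0.112) in fat body replicate 1, which did not pass. All 4 ratios were above 1. On start-side ends the ratio was 2.62 in fat body replicate 2 (n = 27, adjusted p = 0.00154) and 1.40 in brain replicate 2, which no longer passed (adjusted p = 0.174).

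The highest fold decile went the other way in brain replicate 2. It began at a fold of 11.6 and had 132 end peaks, 4.89 per Mb against 7.86 in the interior, a ratio of 0.586 (0.452 to 0.760, quasi-Poisson model, n = 27, adjusted p = 0.00158), or 0.666 on start-side ends (adjusted p = 0.135). Ratios for that decile were 0.665 in brain replicate 1, 0.906 in fat body replicate 1 and 0.829 in fat body replicate 2 (n = 27, adjusted p = 0.119, 0.618 and 0.492). In brain replicate 2, 6.24% of end peaks and 9.40% of interior peaks exceeded a fold of 12, as did 3.96% and 7.35% in fat body replicate 2. In brain replicate 1, 4 end peaks (0.973%) exceeded that fold against 0.398% of the interior, and in fat body replicate 1, 7 end peaks (1.27%) did against 1.29%.

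Width was compared as the mean log2 width of end peaks minus that of interior peaks in each sequence. Median widths near the ends and in the interior were 490 and 495 bp in brain replicate 1, 367 and 408 bp in brain replicate 2, 538 and 519 bp in fat body replicate 1, and 526 and 515 bp in fat body replicate 2. Brain replicate 2 peaks were narrower near the ends, at 0.912 times the interior width (0.882 to 0.943, linear model, n = 27 sequences, adjusted p = 2.47e-05), and were narrower in 23 of 27 sequences. Ratios in the other lists were 0.983 (0.952 to 1.02), 1.03 (0.981 to 1.09) and 1.01 (0.953 to 1.08), with adjusted p of 0.402, 0.402 and 0.676 over 27, 26 and 27 sequences. The narrowing in brain replicate 2 did not pass on start-side ends (0.944, n = 27, adjusted p = 0.182) or with a 1 Mb zone (0.984, adjusted p = 0.443). With only the peaks of highest −log10 q, as many as in the shortest list, the direction turned, to 1.04 (n = 27, adjusted p = 0.901).

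The widest peaks of brain replicate 2 thinned out towards the ends. Its widest decile, at 966 bp or more, had 131 end peaks, 4.85 per Mb against 7.87 in the interior, a ratio of 0.590 (0.491 to 0.709, quasi-Poisson model, n = 27, adjusted p = 2.47e-05), and the end was denser in 3 of 27 sequences. From the outermost step inwards these peaks had densities of 2.41, 3.89, 5.19, 6.48 and 6.30 per Mb. Over the next 5 steps, to 1 Mb, the densities were 9.44, 12.2, 9.81, 10.6 and 10.4 per Mb. They were 13 of 358 peaks in the outermost 100 kb (3.63%) and 51 of 424 between 500 and 600 kb. With a 1 Mb zone the ratio was therefore near 1, at 0.953 (n = 27, adjusted p = 0.613), and it was 0.432 with a 250 kb zone (adjusted p = 3.62e-05). On start-side ends it was 0.676 (n = 27, adjusted p = 0.0488). In the other lists the widest decile had ratios of 1.02, 1.11 and 1.51 (quasi-Poisson model, n = 27, adjusted p = 0.927, 0.612 and 0.0674). These were all above 1 and did not pass, so no other list had its widest peaks sparser near the ends.

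The third question was how far end peaks were shared between lists, counting any overlap of at least 1 bp. Near the ends 337 of 411 brain replicate 1 peaks (82.0%) overlapped a peak of another list, against 79.7% in the interior. For brain replicate 2 the shares were 20.2% (381 of 1890) and 16.5%, for fat body replicate 1 66.7% (368 of 552) and 61.5%, and for fat body replicate 2 79.1% (360 of 455) and 84.0%. Sharing was thus lower near the ends in fat body replicate 2 and a few points higher in the other lists. In a quasi-binomial model over sequences, the odds ratio in fat body replicate 2 was 0.709 (0.547 to 0.918, adjusted p = 0.0440), lower near the end in 19 of 27 sequences. With fold and width as covariates it was 0.888 and did not pass (n = 27, adjusted p = 0.377), nor did it without brain replicate 1 among the partner lists (0.796, adjusted p = 0.155), with a 250 kb zone (0.729, adjusted p = 0.0959) or on start-side ends (0.651, adjusted p = 0.107). Brain replicate 1, at an odds ratio of 1.21 (0.919 to 1.59), brain replicate 2, at 1.31 (1.02 to 1.68), and fat body replicate 1, at 1.25 (0.988 to 1.58), did not pass (n = 27, 27 and 26 sequences, adjusted p = 0.166, 0.0757 and 0.0828). In the covariate model of single peaks the same 3 lists passed, at 1.37, 1.32 and 1.42 (6440, 32498 and 8306 peaks, quasi-binomial adjusted p = 0.0317, 2.28e-05 and 0.00178). That p takes peaks as independent and does not cover the spread over sequences, so it cannot be set beside the p of the model over sequences. The direction turned without the same-tissue partner, to 0.931 in brain replicate 1 and 0.868 in fat body replicate 1 (n = 27 and 26 sequences, adjusted p = 0.549 and 0.129). Without fat body replicate 1 as a partner both brain lists passed, at 1.32 and 1.33, and without brain replicate 1 fat body replicate 1 did, at 1.33 (n = 27, 27 and 26 sequences, adjusted p = 0.0410, 0.0410 and 0.0355).

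Of the 12 ordered pairs of lists, 1 passed, in a comparison added after the data were seen. Brain replicate 1 overlapped 173 of 455 end peaks of fat body replicate 2 (38.0%), against 50.2% of its interior peaks, an odds ratio of 0.591 (0.479 to 0.728, quasi-binomial adjusted p = 0.000254), lower in 22 of 27 sequences. Seen from brain replicate 1, fat body replicate 2 overlapped 41.8% of end peaks and 43.7% of interior peaks (odds ratio 0.938, n = 27, adjusted p = 0.623). Between replicates, brain replicate 2 overlapped 65.2% of brain replicate 1 end peaks and 59.9% of interior ones, and fat body replicate 1 overlapped 65.9% of fat body replicate 2 end peaks and 71.0% of interior ones (n = 27, adjusted p = 0.138 for both).

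Of the peaks called in a single list, those of fat body replicate 2 were denser near the ends and those of brain replicate 2 sparser, while brain replicate 1 and fat body replicate 1 did not pass (ratios of 0.881 and 0.926). Those of fat body replicate 2 alone numbered 95 near the ends, 3.52 per Mb against 2.13, a ratio of 1.68 (1.29 to 2.20, quasi-Poisson model, n = 27, adjusted p = 0.00229), or 1.63 on start-side ends (adjusted p = 0.135). Those of brain replicate 2 alone numbered 1509, 55.9 per Mb against 64.4, a ratio of 0.853 (0.772 to 0.942, n = 27, adjusted p = 0.0117). With a 1 Mb zone neither passed, at 1.34 for fat body replicate 2 alone and 0.984 for brain replicate 2 alone (n = 27, adjusted p = 0.0627 and 0.731). Shared peaks of brain replicate 2 had a ratio of 1.12 (0.924 to 1.35, n = 27, adjusted p = 0.440). The deficit of that list near the ends therefore passed the test for its unshared peaks and not for its shared ones; the difference between both classes is the odds ratio of 1.31 above, which did not pass.

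Merging the 4 lists gave 40185 regions on these sequences, 2424 of them within 500 kb of an end. The class most concentrated near the ends was that of regions that both fat body lists and neither brain list had called. They made up 127 of 2424 end regions (5.24%), against 2.94% of interior regions and a background of 3.08% over all regions. Their density was 4.70 per Mb near the ends and 2.80 in the interior, a ratio of 1.72 (1.35 to 2.19, quasi-Poisson model, n = 27, adjusted p = 0.000282 over 3 classes, added after the data were seen). They lay at 42 of 54 ends, with at most 9 at any one of them. The far sides held 80 and the start sides 47, and on start sides alone the ratio was 1.27 and did not pass (n = 27, adjusted p = 0.630). Without fat body replicate 2, when fat body replicate 1 alone had to call a region, the ratio was 1.14 and did not pass (n = 27, adjusted p = 0.264), on 312 end regions. It was 1.68 without fat body replicate 1 (n = 27, adjusted p = 4.4e-05), on 223 end regions. By step from the end inwards these regions numbered 30, 27, 27, 22 and 21.

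Both brain lists and neither fat body list had called 138 regions near the ends (5.69%, background 4.69%), at 5.11 per Mb against 4.41, a ratio of 1.16 (0.941 to 1.44, quasi-Poisson model, n = 27, adjusted p = 0.229). Without brain replicate 1, when brain replicate 2 alone had to call them, the direction turned, to 0.874 (n = 27, adjusted p = 0.00567), on 1655 end regions, and without brain replicate 2 there were 212. Regions called in all 4 lists numbered 89 near the ends (3.67%, background 3.72%) and 1406 in the interior, a density ratio of 0.937 (0.668 to 1.31, n = 27, adjusted p = 0.695). As a share of regions, their odds ratio was 0.996 (0.705 to 1.41, quasi-binomial p = 0.981). At equal list lengths 9 were left near the ends, at a density ratio of 0.558 (n = 27, adjusted p = 0.180). Those 89 lay on 24 of 27 sequences and at 39 of 54 ends, and without brain replicate 2 they would number 139. Their median brain folds were 5.88 and 5.34, and their median fat body folds 6.80 and 8.51. Interior regions of the same class had 6.21 and 6.02, and 7.20 and 9.06. Regions called in a single list were 76.8% of end regions, against a background of 80.8%.

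**Figure D4:**
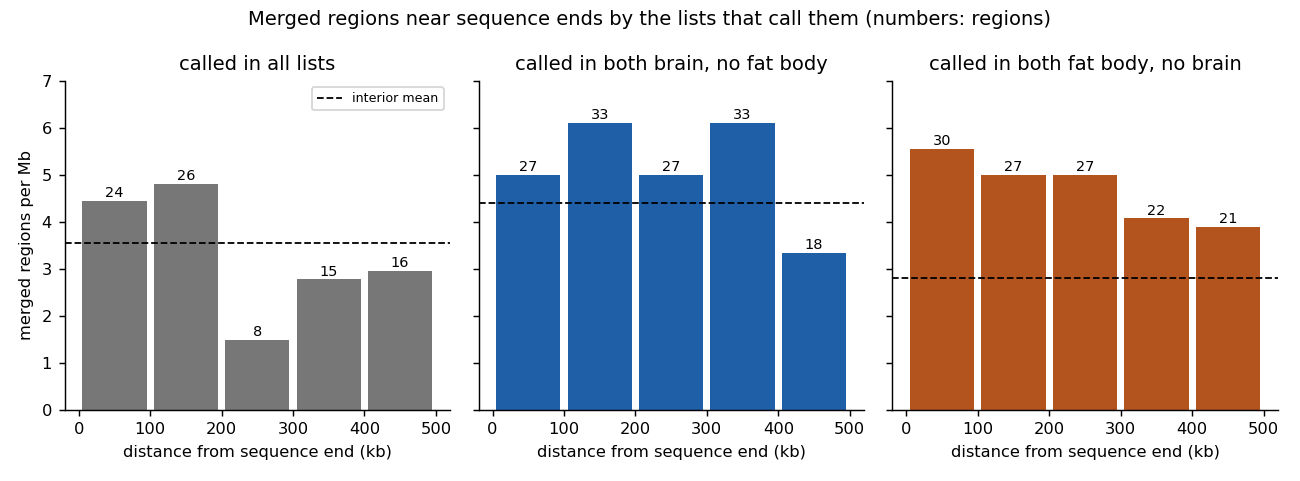
Merged regions per Mb in each 100-kb step of the end zone (bars, with the number of regions above each) for regions called in all 4 lists, in both brain lists only and in both fat body lists only; dashed lines give the interior mean of each class. All 5 bars of the fat body class lie above its interior mean of 2.80 per Mb.

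Among end regions called in all 4 lists, 10 were ranked by their smallest fold; coordinates are 1-based in the assembly of the lists. The first lay on sequence 6 from 140264 to 140861, with brain folds of 12.1 and 10.7 and fat body folds of 14.0 and 18.5. Summit pileups there were 93, 78, 94 and 82 fragments. The next lay on sequence 14 from 13212194 to 13212887, with folds of 10.6, 8.47, 16.1 and 17.6 in the same order. Sequence 8 held 2 of the 10, from 16233139 to 16234348, at 23.1 kb from the far end, and from 15991182 to 15992012. Fold was higher in both fat body lists than in both brain lists in each of these 4 and in 7 of all 10, the exceptions lying on sequences 4, 24 and 25. The median folds of the whole class, given above, had that order too, near the ends as well as in the interior. The share of the class with this order was not computed, so 7 of 10 does not set these regions apart. The region at 23.1 kb had pileups of 19 and 30 fragments in brain, beneath folds of 7.89 and 11.2, while fat body had 179 and 74. The remaining 6 lay on sequence 23 from 474354 to 474863, sequence 28 from 10360806 to 10361583, sequence 4 from 18559707 to 18560678, sequence 24 from 17202735 to 17205250, sequence 25 from 14369173 to 14370385 and sequence 5 from 18637794 to 18638716. Their smallest folds were between 7.38 and 7.75.

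With the closest shared region taken on each sequence, the 5 at the shortest distance from an end all lay on far sides. They were on sequence 12 from 17499432 to 17500712, at 5.81 kb from the end, sequence 28 from 10554583 to 10555218, at 6.04 kb, sequence 11 from 20422374 to 20423411, at 10.9 kb, sequence 26 from 11445845 to 11446454, at 19.7 kb, and sequence 20 from 12303698 to 12304715, at 20.0 kb. On sequence 12 brain folds were 4.87 and 2.88, below fat body folds of 10.0 and 7.48. On sequence 28 the order was the opposite, with brain folds of 7.88 and 8.44 above fat body folds of 6.43 and 3.57. Distances on far sides depend on where the last peak was called.

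The end regions of brain alone with the highest folds began with one on sequence 14 from 13330747 to 13331975, which itself set the far end of its sequence. Its folds were 11.2 and 17.9, its pileups 57 and 86 fragments, and the nearest fat body peak lay 34011 bp away. The next lay on sequence 27 from 372063 to 372452, with folds of 20.3 and 10.9 on pileups of 48 and 29 fragments. The other 3 lay on sequence 20 from 357698 to 358185, sequence 17 from 16528465 to 16529085 and sequence 24 from 95779 to 96529, with smallest folds of 8.49, 8.20 and 8.03. Their pileups ran from 99 to 309 fragments, above those of the first pair.

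For fat body alone, the first region lay on sequence 15 from 18070779 to 18071529, with folds of 10.0 and 12.6 and pileups of 122 and 125 fragments. A brain peak lay only 446 bp from it, and one lay 528 bp from the next, on sequence 9 from 411787 to 412763, whose folds were 9.62 and 10.1. These 2 were thus close to brain signal that did not overlap them. The other 3, on sequence 24 from 38949 to 39469 and from 17220354 to 17221111 and on sequence 20 from 130251 to 131126, lay 11532, 5261 and 21925 bp from the nearest brain peak. Their folds were 9.42 and 9.73, 9.11 and 9.09, and 8.85 and 13.1.

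Peak counts at single ends varied more, relative to their mean, in both fat body lists than in either brain list. Per 500-kb end, brain replicate 1 had 2 to 17 peaks with a median of 7, brain replicate 2 had 20 to 59 with a median of 35, fat body replicate 1 had 0 to 26 with a median of 9 and fat body replicate 2 had 0 to 21 with a median of 8. The variance over the mean of these counts was 1.39, 2.14, 4.79 and 2.97 in the same order, where independent scatter at one rate gives 1. The higher values of fat body were not particular to the ends. In 100-kb windows the variance over the mean was 2.78 near the ends and 2.90 in the interior of fat body replicate 1, and 1.91 and 1.75 in replicate 2. It was 1.25 and 1.41 in brain replicate 1, and 1.46 and 1.20 in brain replicate 2. Peak density was above the interior of the same sequence at 25, 13, 25 and 33 of 54 ends. In all 4 lists 2 ends were above it, and 8 were above it in none. The numbers that independent lists would give were not computed.

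The 5 ends with the highest mean log2 ratio over the lists were the far ends of sequences 28, 13, 24 and 17 and the start of sequence 28. The far end of sequence 28 had 8 and 43 peaks in brain replicates 1 and 2 and 15 in each fat body list, which is 30 per Mb in both fat body lists against 9.31 and 6.48 in the interior. In brain replicate 2 it was below its interior, at 86 against 98.7 per Mb. The far end of sequence 13 had 12 and 33 brain peaks and 26 and 21 fat body peaks, 52 and 42 per Mb in fat body against 16.6 and 11.2 in its interior. The far end of sequence 24 had 13 and 43 brain peaks and 19 in each fat body list, and that of sequence 17 had 14 and 49 brain peaks and 15 and 13 fat body peaks; these were the 2 ends above the interior in all lists. The start of sequence 28 had 17 peaks of brain replicate 1, the most at any end in that list, 39 of brain replicate 2 and 8 and 9 of the fat body lists.

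The 5 ends with the lowest mean were both ends of sequence 21, the far ends of sequences 3 and 27 and the start of sequence 8. Neither fat body list had a peak in the last 500 kb of sequence 21, where brain replicate 1 had 4 and brain replicate 2 had 39. At the start of sequence 21 fat body had 0 and 1 peaks and brain 6 and 59, the highest count of brain replicate 2 at any end. At the far end of sequence 3 brain counts were 5 and 50 and fat body counts 1 and 0, and at the far end of sequence 27 they were 5 and 41, and 1 and 2. The start of sequence 8 was low in all lists, with 3 and 25 brain peaks and 4 and 3 fat body peaks. At the other 4 of these ends brain replicate 2 had 39 to 59 peaks, above its median of 35. Against its own interior it was denser at the start of sequence 21 and the far end of sequence 3, at 118 and 100 per Mb against 82.1 and 80.7. It was slightly sparser at the far ends of sequences 21 and 27, at 78 and 82 per Mb against 82.1 and 82.3. Brain replicate 1 was below its interior at all 5 ends, with log2 ratios from -0.348 to -1.19.

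Across the 54 ends the log2 ratios of the fat body lists went together, with Pearson's r of 0.852 and Spearman's rho of 0.782. For brain replicate 1, r was 0.476 with fat body replicate 1, 0.550 with fat body replicate 2 and 0.025 with brain replicate 2. For brain replicate 2, r was -0.209 and -0.145 with fat body replicates 1 and 2. These are descriptions over ends that come in pairs from 27 sequences and share each sequence's interior, and they carry no p. Leaving out any 1 sequence kept the density ratio between 0.883 and 0.908 in brain replicate 2 and between 1.25 and 1.33 in fat body replicate 2. It was between 0.973 and 1.03 in brain replicate 1 and between 1.03 and 1.11 in fat body replicate 1.

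**Figure D5:**
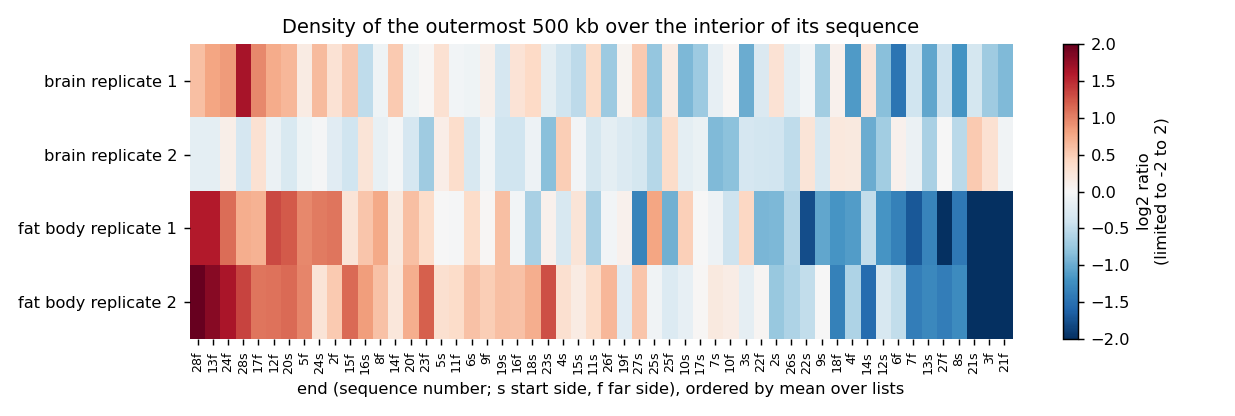
Log2 ratio of the peak density in the outermost 500 kb over the interior of the same sequence, with 1 peak per Mb added to both, for the 54 ends (columns, s for the start side and f for the far side) and 4 lists (rows), ordered by the mean over lists. The order is carried by the fat body lists and in part by brain replicate 1, while brain replicate 2 shows little range, with counts of 20 to 59.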

How the data were processed

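Peaks were called separately in each of the 4 libraries. The tools, per the submitters' processing notes, were MACS2 2.1.0, deepTools 3.3.0, Bowtie2, Trim Galore and Picard, with no order or settings stated. A name for the assembly was not given in the sources used here. The deposited lists hold, per peak, a score (10 times −log10 q, rounded down), the authors' fold enrichment (a ratio at the summit over a local background), and −log10 p and −log10 q. Lists stop near a q of 1e-05, and the reads behind them are unknown; median summit pileups of end peaks were 45 to 66 fragments.

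Distance to an end was taken from the summit. Quasi-Poisson (density), linear (width) and quasi-binomial (sharing) models compared end and interior within each of 27 sequences (statsmodels 0.14.6, Python 3.11.15); dispersion was not let below 1, p was two-sided with Benjamini-Hochberg adjustment, and the threshold was 0.05. Confidence intervals are 95% and cover the spread over sequences of 1 library, not replicate error. Nearby peaks are not independent. Pileup was solved from the fold, as (pileup + 1)/(background + 1), and the Poisson tail p, and came out whole within 0.02 for 100% of peaks. The density and sharing models over sequences were run on simulated counts, and the width and single-peak models were not. The simulated sharing counts had no spread beyond binomial draws, less than in brain replicate 2, where the dispersion was 4.20. Named ends and regions followed rank rules. These took the 5 highest and 5 lowest ends, and the 10 shared and 5 regions of each tissue with the highest smallest fold. They also took the closest shared region on each of the 5 sequences where that distance was shortest. Alternatives covered the zone, the −log10 q limit, list length, overlap and left-out libraries. The members and lists were chosen with earlier results of these data known. Since the only gene table at hand is of a different assembly, no gene or sequence is named. In the printed tests n is the number of sequences, except in the covariate model of sharing, where single peaks were the units. Fat body replicate 1 had no end peak on sequence 21, and its width and sharing models over sequences rest on 26.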

Additional observations from a re-analysis of the deposited data

Results flagged for a closer look

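The mean difference in peak width between ends and interior had opposite signs in the tissues. The mean log2 width of end peaks minus interior peaks was -0.024 and -0.13 in brain, in replicate order, where fat body had 0.048 and 0.018. In brain replicate 1 the end peaks were nonetheless the wider ones in 14 of 27 sequences. The difference between tissues was not tested, and among these 4 values only that of brain replicate 2 passed its own test; the signs of brain replicates 1 and 2 and of fat body replicate 1 turned under some settings.

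Sequence 1 lay outside the members, and it too held peaks within 500 kb of its ends. They numbered 16 and 46 in brain, where fat body had 11 and 12, over 1 Mb of end zone, where the interior had 13.4, 50.2, 11.5 and 7.34 peaks per Mb. A single sequence gives no spread, and these values were not tested.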

How the results depend on the processing

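The density ratio of brain replicate 2 was below 1 under all 8 alternatives, lowest at equal list lengths (0.570), and passed in 6, not with a 1 Mb zone (0.986) or the central 50% as interior (0.945). That of fat body replicate 2 was above 1 under all 8 and passed in 4, not with a 1 Mb zone (1.09), −log10 q of at least 20 (1.23), start-side ends (1.15) or the central 50% (1.17). Of these 4, equal list lengths was no separate check, as fat body replicate 2 is the shortest list and kept all its peaks. Another pass, in both lists, came from a negative binomial model of 100-kb windows, which takes neighbouring windows as independent. Ratios that did not pass turned direction in brain replicate 1 (1 Mb 0.938, −log10 q 0.861, equal list lengths 0.996, start side 0.943, central 50% 0.903) and in fat body replicate 1 (1 Mb 0.939, start side 0.987, central 50% 0.958). Width turned in brain replicate 1 (250 kb 1.02, −log10 q 1.01, equal lengths 1.002), in fat body replicate 1 (1 Mb 0.995) and in brain replicate 2 (equal lengths 1.04), whose ratio also missed the threshold with a 1 Mb zone (0.984) and start-side ends (0.944); fat body replicate 2 passed with −log10 q of at least 20 (1.09). Sharing odds in fat body replicate 2 missed it with 250 kb (0.729), 1 Mb (0.768), −log10 q (0.683), start-side ends (0.651), the same-tissue replicate alone (0.777) and covariates (0.888). With covariates, in the model that took single peaks as independent units, brain replicates 1 and 2 and fat body replicate 1 passed (1.37, 1.32 and 1.42). Fat body replicate 1 also passed at equal lengths (1.46), where brain replicate 1 turned (0.941). Without 1 partner list the odds ratios ran from 0.931 to 1.32 and 1.24 to 1.33 in brain and from 0.868 to 1.33 and 0.620 to 0.796 in fat body. The density ratio of regions in all lists turned with 250 kb (1.12), was 0.558 at equal lengths and ran from 0.961 to 1.01 with 1 library left out, as their number ran from 109 to 139. That of brain regions turned with −log10 q (0.968) and equal lengths (0.942) and ran from 0.874 to 1.20; that of fat body regions fell short on start sides (1.27) and ran from 1.14 to 1.68. The mean log2 ratio over lists ran from -0.017 to 0.16, and the tissue difference from 0.17 to 0.44. With a replicate block the tissue difference was 0.30 again (exact p = 0.5, the smallest 2 pairs can give); replicate numbers share nothing else in the labels. Start-side ends, density tests of region and peak classes and left-out partners were chosen after seeing the data; the cause of the changes was not tested. Equal lengths and a −log10 q limit keep fewer peaks. List length limits what is seen: a peak missing from a list may be too weak to call.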

Other observations

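Beyond the end zone, 3 of the 4 lists were sparser than their interior between 600 and 800 kb from the ends, mostly on the far sides. From 600 to 700 kb and from 700 to 800 kb, fat body replicate 1 had 5.93 and 9.26 peaks per Mb on the far sides and 17.8 and 19.6 on the start sides, against an interior mean of 19.6. Fat body replicate 2 had 7.41 and 5.93 on the far sides and 17.0 and 11.1 on the start sides, against 13.3. Brain replicate 1 had 8.89 and 13.3 on the far sides and 15.2 and 14.4 on the start sides, also against 15.2. Brain replicate 2 was above its interior mean of 77.2 on both sides, with 90.4 and 91.5 on the far sides and 84.1 and 81.9 on the start sides. These steps were singled out after their values were seen and were not tested.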
